A study of Mus musculus with 10 samples.

Results

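The miR-200 family comprises 5 miRNAs made from 2 clusters of the mouse genome, miR-200a, miR-200b and miR-429 on chromosome 4 and miR-200c and miR-141 on chromosome 6. Its probes were taken as those whose name on the array, without the species prefix and any suffix, equals a member's name, so that the opposite strands marked with a star were left out. This gave 5 probes of the 655 on the array, 3 for the chromosome 4 locus and 2 for the chromosome 6 locus. Total liver RNA came from mice of the FVBN strain aged 4 months. There were 5 samples from wild type (WT) mice and 5 from mice carrying a human PGC-1α transgene (LivPGC-1α). The study states that all mice were killed after a night without food. The transgene is the human coding sequence behind the promoter, exon 1 and part of exon 2 of the apolipoprotein E gene, which the methods describe as expressed in liver alone. One single-colour bead array was hybridised per sample, the 10 arrays share 1 chip, and the WT arrays fill its first 5 positions, so chip position and genotype are confounded. Nothing in the labels says that each sample is a separate mouse, and p-values measure the spread between these samples.

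miR-200 miRNAs are known as guardians of the epithelial state. They repress the transcription factors ZEB1 and ZEB2, which themselves silence E-cadherin and the miR-200 genes, so that the family and its targets form a double-negative loop in epithelial-mesenchymal transition. In liver the family is associated with the epithelium of the bile ducts more than with hepatocytes. The samples were whole liver, in which fewer cells of a type and less miRNA per cell cannot be told apart.

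The mature sequences are shown because the members fall into groups by seed that cut across the 2 genomic clusters. They are the 3p arms in RefSeq (build GRCm38.p6), where all 5 members matched, and the capitals mark the seed, bases 2 to 8 counted from the 5′ end, through which a miRNA pairs with its targets. The chromosome 4 members come first and the chromosome 6 members last.
miR-200b: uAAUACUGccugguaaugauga
miR-429: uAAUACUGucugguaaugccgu
miR-200a: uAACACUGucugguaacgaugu
miR-200c: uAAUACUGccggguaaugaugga
miR-141: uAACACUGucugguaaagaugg

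miR-200b, miR-429 and miR-200c share the seed AAUACUG, and miR-200a and miR-141 share AACACUG, which differs from it in 1 base. Among 1679 mature mouse names in the RefSeq table, no miRNA outside the family carries either seed. Each locus therefore holds members of both seed groups. The closest relatives lie on different chromosomes. Over 22 positions counted from the 5′ end, miR-200a and miR-141 differ at 2 (C17A and U22G, miR-200a first), and miR-200b and miR-200c also at 2 (U11G and A22G, miR-200b first). Pairs from 1 locus differ at 4 positions each, among them miR-200a against miR-200b (C4U, U9C, C17U and U22A).

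All 5 hairpins are annotated on the minus strand. On chromosome 4 the hairpin of miR-429 lies at chr4:156053905-156053987, that of miR-200a at chr4:156054896-156054985 and that of miR-200b at chr4:156055681-156055750, a stretch of 1846 bases within the span of the long noncoding RNA gene Gm13648. On chromosome 6 the hairpin of miR-141 lies at chr6:124717914-124717985 and that of miR-200c at chr6:124718322-124718390, a stretch of 477 bases between the genes Phb2, which encodes a prohibitin of the mitochondrial inner membrane, and Ptpn6, which encodes the phosphatase SHP-1 of blood cells. The array files assign the probes to the same chromosomes but name no genome build.

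The arrays detected between 423 and 482 of 655 probes, at a detection p of at most 0.01 against the negative controls of the same array. The hepatocyte markers set out for the check of the tissue, miR-122, miR-192, miR-194, miR-148a and miR-802, were detected on all arrays, and miR-122, the dominant miRNA of hepatocytes, had a mean signal of 53687. The arrays WT 1, WT 3 and WT 5 stood apart from the rest. The SD of their log2 signals around the genotype mean over 513 probes was 0.37, 0.33 and 0.37, against 0.11 to 0.18 on the other 7 arrays. On WT 1 the summed signal of 7 striated muscle miRNAs reached 99224, against 7095 to 7509 in LivPGC-1α. Results on the family are therefore also given without these 3 arrays. This leaves only WT 2 and WT 4 for WT, which were the highest WT arrays for every chromosome 4 member.

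All 5 members were present in liver of both genotypes. Each was detected on all 10 arrays, with a detection p of at most 1.43e-15. In order of signal, quantile-normalized and averaged over the 5 WT arrays, they were miR-200b (17153 ± 1135, SD), miR-200a (13529 ± 1944), miR-141 (6491 ± 410), miR-200c (2839 ± 185) and miR-429 (2665 ± 429). The WT ranges of miR-200c and miR-429 overlapped, as did those of miR-200b and miR-200a, whereas that of miR-141 met no other. This is an order of probe brightness. Probes differ in how strongly they bind and label, so it does not rank the miRNAs, or the 2 loci, by abundance. Ranked among the 655 probes of an array, miR-200b held places 111 to 123 and miR-200a 122 to 156, while miR-141 held 192 to 215, miR-200c 267 to 303 and miR-429 273 to 331. The dimmest member, miR-429, was still 1.79 to 3.07 times the lowest detected signal of its array.

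**Figure D1:**
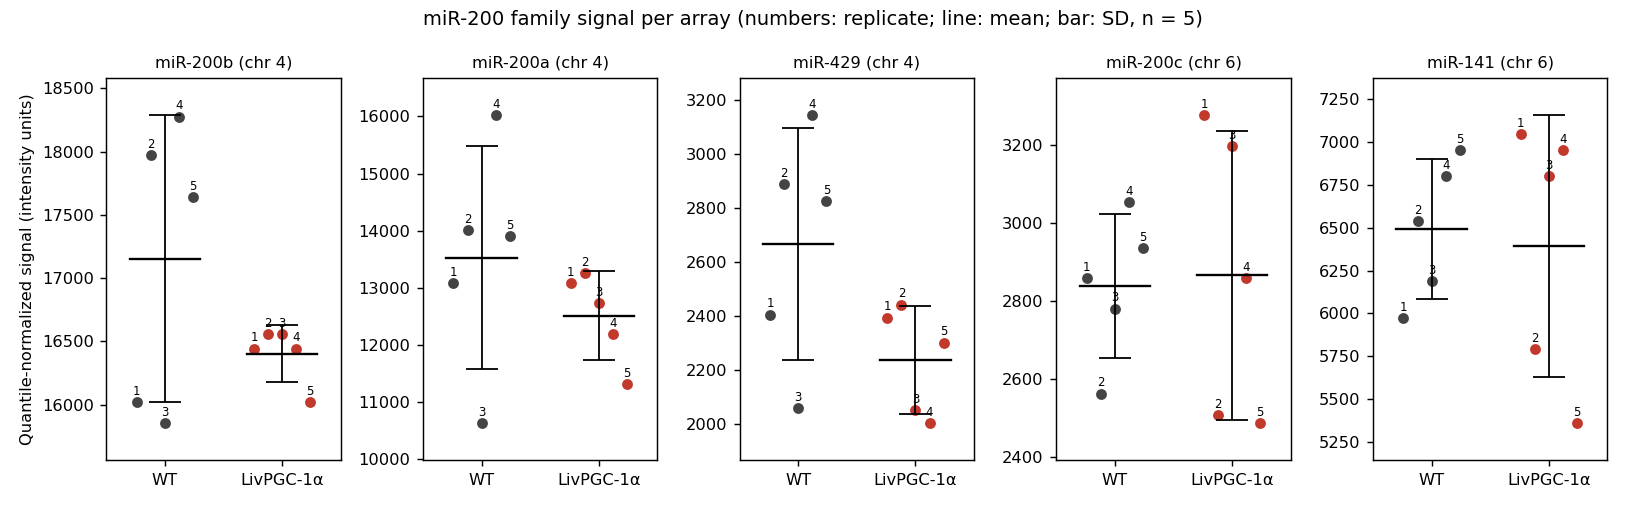
Quantile-normalized signal (y axis, intensity units, not starting at 0) of each miR-200 family member on the 5 WT and 5 LivPGC-1α arrays, numbered by replicate, with the mean and the SD as line and bar. The genotypes overlap for all 5 members, and WT 3 is the lowest and WT 4 the highest WT array for all 3 chromosome 4 members.

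The comparison of LivPGC-1α with WT asks whether overexpression of the coactivator in liver goes along with a different level of the family. No member differed beyond the spread between samples. At an adjusted p under 0.05 (limma, Benjamini-Hochberg over 513 tested probes) 0 of 5 members passed, where 2 of all tested probes (0.39%) did. At an unadjusted p under 0.05, 0 of 5 members passed as well, against 74 of all tested probes (14.4%), of which those higher in LivPGC-1α made up 10.5% and those lower 3.9% of all tested. The groups overlapped in all 5 members, and were apart in 4.87% of all tested probes, 3.9% higher and 0.975% lower. The median log2 change over the 5 members was −0.062, with 4 members below 0 and 1 above, and over all tested probes the median was 0.012, with 43.1% below 0.

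miR-429 showed the largest difference of the 5. This member carries the AAUACUG seed, as miR-200b and miR-200c do. Its signal was 2406, 2889, 2061, 3142 and 2826 on WT 1 to WT 5, and 2394, 2443, 2052, 2005 and 2302 on LivPGC-1α 1 to 5. WT 2, WT 4 and WT 5 exceeded every LivPGC-1α array, while WT 1 and WT 3 lay among them. WT arrays averaged 2665 ± 429 and LivPGC-1α arrays 2239 ± 199 (SD, n = 5 each), which is 1.18-fold higher in WT. The log2 change was −0.24 ± 0.11 (SE), with a 95% interval of −0.50 to 0.018, and did not pass (limma, adjusted p = 0.382, unadjusted p = 0.0647). An exact two-sided permutation test of this probe alone gave p = 0.0794. The direction was the same under all other scalings. Arrays were also scaled to their 75th percentile, taken among the 408 probes that every array detected (detected-probe scaling) or among all 655 (all-probe scaling), smoothed by cyclic loess, or left unscaled. Under these the unadjusted p lay between 0.00508 and 0.0472 and the adjusted p between 0.145 and 0.625 (limma). With a background correction drawn from the detection p-values (normexp) the unadjusted p was 0.0712 (limma, adjusted p = 0.401). With the authors' normalized values it was 0.0645 (limma, adjusted p = 0.38). The change was −0.33 without WT 3 (limma, adjusted p = 0.174, unadjusted p = 0.00585). There 68 of 498 tested probes had an unadjusted p under 0.05, of which 24 were lower in LivPGC-1α. Without WT 4 the change was −0.18 (limma, adjusted p = 0.506, unadjusted p = 0.15). Those were the extremes of the change over the 10 omissions of 1 array, with an adjusted p between 0.174 and 0.558 (limma). Allowing for where an array lies on the chip gave −0.29 (limma, adjusted p = 0.807, unadjusted p = 0.275). The change was −0.43 without WT 1, WT 3 and WT 5 (limma, adjusted p = 0.254, unadjusted p = 0.00264). WT was there left with only WT 2 and WT 4, its highest arrays for miR-429. In that last setting 53 of 489 tested probes had an unadjusted p under 0.05, of which 28 were lower in LivPGC-1α.

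The other members of the chromosome 4 locus lay below WT by less. miR-200a had a signal of 13080, 14007, 10637, 16017 and 13901 on WT 1 to WT 5, and of 13080, 13252, 12733, 12196 and 11318 on LivPGC-1α 1 to 5. The highest and the lowest of all 10 values were WT arrays, and the LivPGC-1α values lay between them. The change was −0.10 ± 0.098 (SE, limma, adjusted p = 0.698), with a 95% interval of −0.32 to 0.12. It was −0.19 without WT 3 (adjusted p = 0.264) and −0.035 without WT 4, so that its size depended on which of these 2 arrays was included. Without WT 1, WT 3 and WT 5 the change was −0.27 (limma, adjusted p = 0.329, unadjusted p = 0.0101). miR-200b had a signal of 16017, 17976, 15855, 18277 and 17639 on WT 1 to WT 5, and of 16442, 16557, 16557, 16442 and 16017 on LivPGC-1α 1 to 5. The LivPGC-1α arrays fell within a narrow band inside the WT range. The change was −0.062 ± 0.045 (SE, limma, adjusted p = 0.593), with a 95% interval of −0.16 to 0.039, and it turned to 0.016 with all-probe scaling. Without WT 1, WT 3 and WT 5 it was −0.15 (limma, adjusted p = 0.254, unadjusted p = 0.00171). For miR-200a and miR-200b alike, this omission left only the highest WT arrays, WT 2 and WT 4.

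With quantile normalization the chromosome 6 members lay nearest to 0. miR-200c had a signal of 2860, 2562, 2781, 3055 and 2937 on WT 1 to WT 5, and of 3277, 2507, 3198, 2860 and 2487 on LivPGC-1α 1 to 5. Here the LivPGC-1α arrays held both the highest and the lowest values. The change was 0.0063 ± 0.089 (SE, limma, adjusted p = 0.996), with a 95% interval of −0.19 to 0.21, and its sign was not stable across scalings. miR-141 had a signal of 5972, 6540, 6190, 6801 and 6953 on WT 1 to WT 5, and of 7048, 5793, 6801, 6953 and 5361 on LivPGC-1α 1 to 5. As for miR-200c, LivPGC-1α 1 was the highest and LivPGC-1α 5 the lowest of all arrays. The change was −0.029 ± 0.085 (SE, limma, adjusted p = 0.945), with a 95% interval of −0.22 to 0.16. With detected-probe scaling miR-141 changed by −0.16, against −0.12 for miR-200b. Without normalization it changed by −0.11, against −0.071 for miR-200b. Without WT 1, WT 3 and WT 5, miR-200c changed by 0.025 and miR-141 by −0.064 (limma, adjusted p = 0.973 and 0.889).

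**Figure D2:**
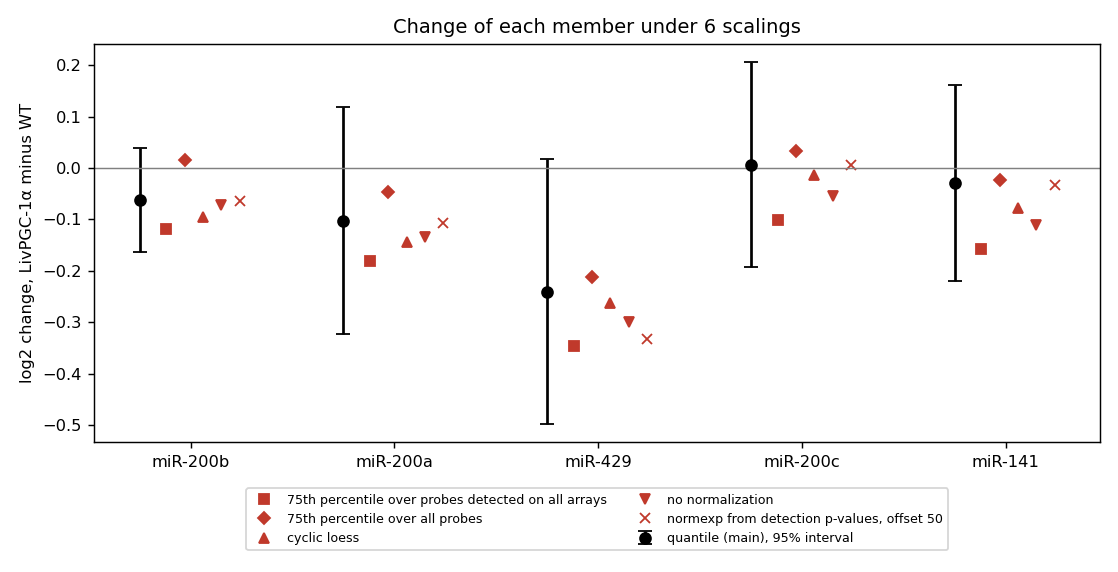
Log2 change of each member (y axis, LivPGC-1α minus WT) with quantile normalization and its 95% interval (black) and with 5 other scalings (red). All 5 intervals include 0, and miR-429 is the member farthest below 0 under each scaling.

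Set against each other within an array, the loci did not separate the genotypes either. The mean log2 signal of the 3 chromosome 4 members minus that of the 2 chromosome 6 members was 0.95, 1.14, 0.76, 1.09 and 0.97 on WT 1 to WT 5, and 0.74, 1.09, 0.70, 0.73 and 1.03 on LivPGC-1α 1 to 5. LivPGC-1α 1, 3 and 4 lay below all WT arrays, and LivPGC-1α 2 and 5 lay among them. It averaged 0.98 ± 0.15 over WT and 0.86 ± 0.19 over LivPGC-1α arrays (SD, n = 5 each). The difference of −0.12 was smaller than either SD and is a description, with no test. It was −0.27 without WT 1, WT 3 and WT 5, which leaves only the WT arrays with the highest values, WT 2 and WT 4. The locus means themselves differed by −0.13 for chromosome 4 and −0.011 for chromosome 6. The spread between samples was wider in WT for one locus and in LivPGC-1α for the other, with an SD of 0.18 in WT and 0.062 in LivPGC-1α for chromosome 4, and of 0.076 in WT and 0.18 in LivPGC-1α for chromosome 6.

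Members of 1 locus varied together from sample to sample, with higher correlations than between loci, a difference that was not itself tested. All 3 chromosome 4 members were lowest on WT 3 and highest on WT 4 among the WT arrays, and the chromosome 6 members were highest on LivPGC-1α 1 and lowest on LivPGC-1α 5. Over the 10 arrays the 10 pairs of members were compared, with permutation tests adjusted over the pairs. Pearson's r was 0.86 for miR-200a with miR-200b (permutation p = 0.00058, adjusted p = 0.0058) and 0.84 for miR-200a with miR-429 (permutation p = 0.00181, adjusted p = 0.00905). It was 0.85 for miR-200b with miR-429 (permutation p = 0.00289, adjusted p = 0.00963) and 0.77 for miR-200c with miR-141 (permutation p = 0.011, adjusted p = 0.0275). Spearman's rho was 0.88, 0.90, 0.69 and 0.82 in the same order (permutation p = 0.00123, 0.00071, 0.033 and 0.00541, adjusted p = 0.00615, 0.00615, 0.0825 and 0.018), so that miR-200b with miR-429 did not pass by rank. The 6 pairs from different loci had r between −0.055 and 0.49 (permutation test, adjusted p between 0.29 and 0.877) and rho between −0.061 and 0.34 (permutation test, adjusted p between 0.644 and 0.926).

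**Figure D3:**
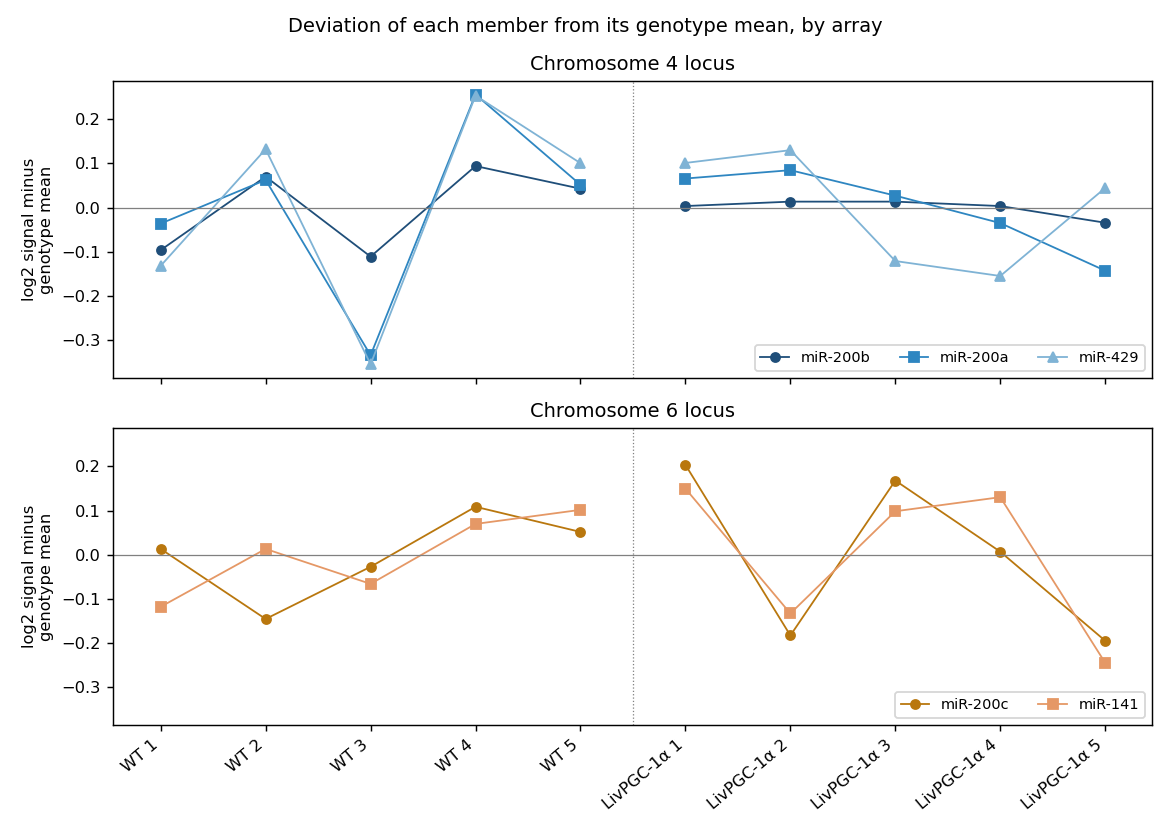
Log2 signal of each member minus its genotype mean (y axis) on each array, for the chromosome 4 members above and the chromosome 6 members below, with lines only to guide the eye. WT 3 and WT 4 are the extremes of the chromosome 4 members, and LivPGC-1α 1 and LivPGC-1α 5 those of the chromosome 6 members.

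The higher correlations were those between neighbours on a chromosome, not those between the most similar sequences. miR-200a and miR-141 share a seed and differ at 2 positions, and had an r of 0.45 (permutation test, adjusted p = 0.33). miR-200b and miR-200c likewise share a seed and differ at 2 positions, and had an r of 0.11 (permutation test, adjusted p = 0.838). Without normalization the r of these 2 pairs was 0.61 and 0.32. The pair miR-200a and miR-200b differs at 4 positions, 1 of them in the seed, and had the highest r of the family. Among the 512 other tested probes, miR-200a and miR-429 ranked 1 and 2 by r with miR-200b. miR-141 ranked 1 with miR-200c and miR-200c ranked 1 with miR-141. With miR-200a, miR-200b ranked 2 and miR-429 ranked 4, and with miR-429, miR-200b ranked 4 and miR-200a ranked 5. With the genotype means removed, locus mates ranked 8 and 9 for miR-200a, 2 and 5 for miR-200b, 7 and 13 for miR-429, 1 for miR-200c and 3 for miR-141. Over all 131328 pairs of tested probes the median r was 0.045, and 2.07% of pairs reached the lowest r within a locus, 0.77. Members of a pair share an array and its scaling, and the part of these in r was not tested.

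The correlations within a locus were lower without the arrays at the extremes. Without the 2 arrays farthest from the median of the first member, here WT 3 and WT 4, r was 0.76 for miR-200a with miR-200b (exact permutation p = 0.0317) and 0.71 for miR-200a with miR-429 (exact permutation p = 0.0474). It was 0.63 for miR-200b with miR-429 (exact permutation p = 0.094) and 0.62 for miR-200c with miR-141 (exact permutation p = 0.107), where the arrays left out were WT 2 and WT 4, and LivPGC-1α 1 and LivPGC-1α 5. These last relations did not pass over 8 arrays. Over the 8 arrays other than WT 3 and WT 4, a choice made after seeing the data, the r of the same pairs was 0.73 and 0.76. With the genotype means removed, r was between 0.78 and 0.84 within a locus and between −0.051 and 0.50 across loci. Over the 7 arrays other than WT 1, WT 3 and WT 5, renormalized, r was between 0.83 and 0.92 within a locus and between −0.14 and 0.41 across loci. With all-probe scaling the ranges met, as the lowest r within a locus was 0.55 and the highest across loci 0.58. The highest r across loci was 0.76 with detected-probe scaling and 0.70 without normalization. The lowest within a locus was there 0.85 and 0.77.

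**Figure D4:**
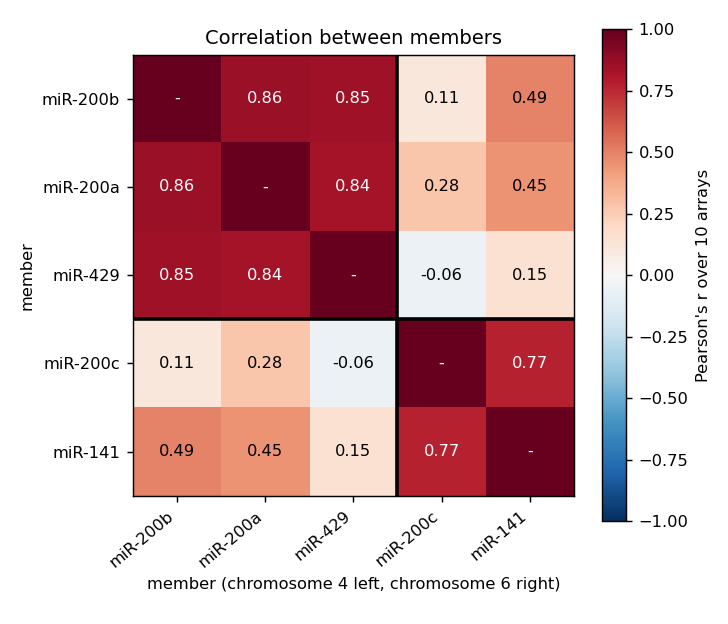
Pearson's r (colour and number) between the log2 signals of each pair of members over the 10 arrays, with thick lines dividing the chromosome 4 from the chromosome 6 members. The 4 pairs from 1 locus lie between 0.77 and 0.86, and the 6 pairs from different loci between −0.06 and 0.49.

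Probes outside the family that varied most like each locus were sought after the genotype means were removed. The 5 probes outside the family with the highest r with the mean of the chromosome 4 members over the 10 arrays were miR-294* (0.88), miR-15a* (0.87), miR-466d-3p (0.87), miR-759 (0.87) and miR-294 (0.87). Of these miR-294* was detected on 3 arrays and miR-759 on 2. For the mean of the chromosome 6 members they were miR-339-5p (0.73), miR-148a* (0.66) and 3 probes that bear only provisional names of the array's design (0.69 to 0.74). None of the 10 passed in LivPGC-1α against WT (limma, adjusted p between 0.165 and 0.977). These were the highest of many, so their r is a description.

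The opposite strands of the hairpins, the 5p arms that are usually less stable and are marked with a star on the array, gave a further view of both loci. Of these, 4 have a probe on the array. miR-141* was detected on no array, and miR-200a* on WT 2 and WT 4 only, so no change is given for it. miR-200b* and miR-200c* were detected on all arrays, and their sequences are shown because their genotype differences are set against those of their guides. Capitals mark bases 2 to 8.
miR-200b*: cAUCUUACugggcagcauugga
miR-200c*: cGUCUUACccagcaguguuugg

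miR-200b* lay higher in LivPGC-1α, in the direction opposite to its guide. Its signal was 2673, 2860, 2302, 2557 and 2770 on WT 1 to WT 5, and 3260, 2937, 3435, 2937 and 2726 on LivPGC-1α 1 to 5. Every LivPGC-1α array but the fifth exceeded all WT arrays. The log2 change was 0.22 ± 0.077 (SE) and did not pass (limma, adjusted p = 0.247, unadjusted p = 0.0193), where 10.5% of all tested probes were higher at an unadjusted p under 0.05. With detected-probe scaling it was 0.098. miR-200c* differed by −0.0062 ± 0.081 (SE, limma, adjusted p = 0.995), from a mean signal of 5261 ± 504 to one of 5236 ± 458 (SD, n = 5 each).

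The ratio of guide to passenger strand was examined after these values had been seen. The log2 ratio of miR-200b to miR-200b* was 2.58, 2.65, 2.78, 2.84 and 2.67 on WT 1 to WT 5, and 2.33, 2.495, 2.27, 2.49 and 2.55 on LivPGC-1α 1 to 5. All 5 LivPGC-1α values lay below all WT values, by a margin of less than the SD of either group. The WT arrays averaged 2.71 ± 0.10 and the LivPGC-1α arrays 2.43 ± 0.12 (SD, n = 5 each), a 1.21-fold lower ratio. An exact two-sided permutation test gave p = 0.00794, the smallest that 5 against 5 arrays allow. Fitted over all 73 pairs of a guide and a passenger probe that were tested, the change of −0.28 ± 0.074 (SE) did not pass (limma, adjusted p = 0.103). In that fit 0 pairs passed (0%), 6 had an unadjusted p under 0.05 (8.22%), and 3 had groups that did not overlap (4.11%). Without normalization the change was −0.22 (limma, adjusted p = 0.347), and there the groups met, at 2.547 for the lowest WT and 2.551 for the highest LivPGC-1α array. The log2 ratio of miR-200c to miR-200c* ranged from −1.19 to −0.62 in WT and from −1.19 to −0.46 in LivPGC-1α, with a change of 0.013 ± 0.15 (SE, limma, adjusted p = 0.991). On every array the miR-200c* probe was thus brighter than that of miR-200c. Strands are called guide and passenger here by the star on the array. Probe brightness does not show which strand is more abundant.

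**Figure D5:**
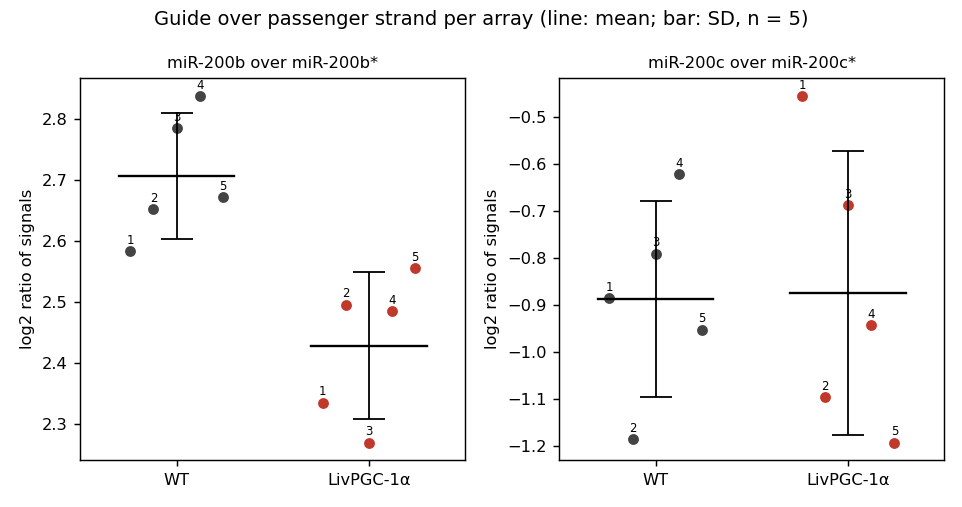
Log2 ratio of the signals of guide and passenger probe (y axis, not starting at 0) for miR-200b and miR-200c on the 5 WT and 5 LivPGC-1α arrays, numbered by replicate, with the mean and the SD. The miR-200b ratios of WT lie at 2.58 and above and those of LivPGC-1α at 2.55 and below, and the miR-200c ratios overlap.

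Across samples the guides and their passengers showed no correlation that passed after adjustment. Over the 10 arrays r was 0.0069 for miR-200b with miR-200b* (permutation p = 0.985, adjusted over 3 such pairs p = 0.985, rho = 0.22 with permutation p = 0.534 and adjusted p = 0.534). With the genotype means removed, which lie in opposite directions for guide and passenger, this r was 0.48. Uncentred and without the 2 arrays farthest from the median it was −0.32 (exact permutation p = 0.445). Over the 10 arrays r was −0.67 for miR-200c with miR-200c* (permutation p = 0.0374, adjusted p = 0.0736, rho = −0.64 with permutation p = 0.0503 and adjusted p = 0.151), which did not pass after adjustment, and −0.39 without the 2 arrays farthest from the median (exact permutation p = 0.333). With the genotype means removed r was −0.67 as well. The third pair, miR-200a with miR-200a*, entered the adjustment but is not described, since miR-200a* was detected on 2 arrays.

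Other miRNAs of epithelial cells showed no difference that passed the test. The list held miR-31, miR-203, miR-205, miR-375 and the miR-183 cluster (miR-96, miR-182 and miR-183). Of 7 tested members, 0 passed (limma, 0.39% of all tested probes) and 0 had an unadjusted p under 0.05 (14.4% of all tested probes), with 3 above and 4 below 0 and a median log2 change of −0.013. miR-203, a miRNA of stratified epithelium and the brightest of the list, differed by 0.090 (limma, adjusted p = 0.516). The changes ran from −0.098 for miR-183 to 0.10 for miR-205, which was detected on 3 arrays. The summed signal of the list ranged from 70587 to 80202 in WT and from 74561 to 76800 in LivPGC-1α, and that of the 5 miR-200 members from 37524 to 47293 in WT and from 37485 to 42241 in LivPGC-1α, with the LivPGC-1α range of the first inside that of WT.

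Markers of other cells in the samples were also compared. Among pancreas markers miR-216a and miR-217 were detected on no array, miR-216b and miR-375 were detected on all arrays, and the summed signal overlapped between the genotypes. The leukocyte list had a median change of 0.14 over 5 members, of which 0 passed (limma, 0.39% of all tested probes) and 1 was higher at an unadjusted p under 0.05 (10.5% of all tested probes), with a summed signal of 97183 to 119109 in WT and 108866 to 122880 in LivPGC-1α. This member was miR-150, a miRNA of mature lymphocytes, with a change of 0.40 (limma, adjusted p = 0.0864). Of 5 hepatocyte markers, 4 lay above 0 and 1 below, with a median change of 0.010. Of these markers 0 passed (0.39% of all tested probes), and 1 was lower at an unadjusted p under 0.05 (3.9% of all tested probes). This marker was miR-802, with a change of −0.35 (limma, adjusted p = 0.327). Of 4 erythroid probes, 2 lay below 0 and 2 above. None passed (0.39% of all tested probes), and 1 was lower at an unadjusted p under 0.05 (3.9% of all tested probes). This probe was miR-486, with a change of −0.25 (limma, adjusted p = 0.327). These 3 miRNAs were named after their values were seen. The part of these cells in the differences of the family was not tested.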

How the data were processed

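Liver miRNAs were profiled on Illumina Universal BeadChips in 10 samples. The authors averaged the beads of each probe in GenomeStudio (version not given in the sources used here) and deposited the intensity without background subtraction, with a detection p-value per probe and array. The authors also deposited a quantile-normalized intensity table, which is on a linear scale, has a median of 2052.3 in every column and follows the scanner signals in direction. It was used as an alternative.

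The deposited intensities were quantile-normalized over 655 probes, floored at 1 and log2-transformed without an offset. The 513 probes with a detection p of at most 0.01 on at least 1 array were tested with limma 3.58.1 (R 4.3.3, lmFit and eBayes, no covariate) and adjusted by the Benjamini-Hochberg method over all of them. The number of arrays limits the precision, and log2 changes had a median standard error of 0.065. Correlations used 100000 permutations. The scripts were tested on simulated data. Alternatives were 5 other scalings or backgrounds, the authors' table, other detection filters, variance models and array weights, a replicate block, chip position, and omission of arrays.

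The named miRNAs are the 5 members, their opposite strands, the lists with their brightest members, and per locus the 5 probes with the highest correlation. Members and lists were chosen with earlier results of these data known. The lists, by results, were hepatocyte (median change 0.010), leukocyte (0.14), erythroid (−0.011), endothelium (0.0096), stellate, fibroblast and smooth muscle (0.022), other epithelium (−0.013), pancreas (−0.0030) and striated muscle (−0.70), with 0 members called in each.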

Additional observations from a re-analysis of the deposited data

Results flagged for a closer look

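In 26 checks of the 5 values of a genotype, over the 5 members, 3 opposite strands, 2 ratios and 3 locus measures, 1 array was separated from the nearest other by more than 0.71 of the whole range in 2 cases, where a rate of 1 in 20 would give 1.3. miR-200b was lowest on LivPGC-1α 5, at 16017 against 16442 or more on the other LivPGC-1α arrays (0.79 of the range). miR-200a* was highest on WT 4, at 1146 (0.73 of the range), and was detected there and on WT 2 only.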

How the results depend on the processing

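In every alternative 0 of 5 members passed (lowest adjusted p, 0.145 for miR-429 with all-probe scaling), and miR-200a and miR-429 stayed below 0. miR-200c turned below 0 with detected-probe scaling (−0.10), cyclic loess (−0.014), no normalization (−0.053) and array weights (−0.036), and miR-200b above 0 with all-probe scaling (0.016). Leaving out 1 array moved miR-200a between −0.19 and −0.035, miR-200b between −0.090 and −0.039, miR-429 between −0.33 and −0.18, miR-200c between −0.043 and 0.056, miR-141 between −0.066 and 0.033, the locus difference between −0.18 and −0.081, and the ratio of miR-200c to miR-200c* between −0.091 and 0.094. Of all probes, 2 passed in the main setting (1 higher), 80 with all-probe scaling (76 higher), 1 with cyclic loess, no normalization, or a variance trend, 0 with the replicate block, chip position, or without WT 1, WT 3 and WT 5 (59, 36 and 53 at an unadjusted p under 0.05, limma), and 0 to 4 with 1 array left out. The replicate numbers did not pair the samples (correlation of deviations, −0.37 to 0.33). With the replicate block miR-429 had an adjusted p of 0.425 (limma), and no member changed its side of the threshold. The median r within a locus, 0.84, was 0.80 with all-probe scaling, 0.74 without WT 3 and WT 4 (chosen after seeing the data) and 0.76 to 0.87 with 1 array left out, and that across loci, 0.22, was 0.52 with detected-probe scaling and 0.091 to 0.39 with 1 array left out. Of probes with an unadjusted p under 0.05, 73.0% were higher in LivPGC-1α in the main setting, 11.3% under detected-probe and 92.9% under all-probe scaling, 44.9% after loess and 44.1% unscaled. The causes were not tested.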
